A study of Mus musculus with 4 samples.

Results

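The genes of ciliary neurotrophic factor (CNTF) and gp130 cytokine signalling were followed in mouse dorsal root ganglia, the sensory ganglia beside the spinal cord. The 9 members were chosen by name, as pathway genes, and looked up in the gene column of a matrix of 14405 genes. They were the ligands Cntf, Clcf1 and Lif, the receptors Cntfr, Lifr, Il6st and Il6ra, and the intracellular genes Stat3 and Socs3. Rows were used for 8 of the 9. Lif enters only by its promoter window, and its level is not analysed here. The choice was made with results of the mutant against wild type comparison known, Cntf having been seen to be higher in both mutants. Its differences and those of the other members are therefore given as descriptions, with no test.

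RNA of whole ganglia was sequenced in 2 samples labelled Prdm12-/Fl; AvilCreERT2/+, called mutant here, and in 2 labelled wild type, all from mice 10 weeks old of a mixed strain. The mutants carry 1 null and 1 floxed allele of Prdm12, a transcription factor gene of the pain-sensing neuron lineage, with a copy of a tamoxifen-inducible Cre recombinase under the sensory neuron gene Avil, so the null allele is not limited to cells with Cre. The time and dose of tamoxifen, any such treatment of the wild types and the number of animals in a sample are not stated by the labels. Levels are in FPKM (sequenced fragments per unit of transcript length and of library size), which is per length, so that levels of different genes can be set side by side. Prdm12 was at 1.05 and 1.50 FPKM in mutant 1 and 2, against 7.58 and 10.7 FPKM in wild type 1 and 2, so the libraries matched their labels. Eif2s3y, a gene of the Y chromosome, was at 24.7 and 23.2 FPKM in the mutants, against 21.3 and 0.025 FPKM in wild type, and Xist, of the inactive X chromosome, was at 0.029 and 0.0043 FPKM in the mutants, against 0.019 and 21.1 FPKM in wild type, so wild type 2 differed in sex from the other 3 samples. These 2 genes were looked up after their values were seen. All 16 sensory neuron markers looked up had values, among them Avil at 102 and 164 FPKM in the mutants and 78.4 and 124 FPKM in wild type.

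CNTF is a cytokine of the interleukin-6 family that peripheral nerve keeps in its myelinating Schwann cells. It lacks a conventional secretion signal and is released on nerve injury, and it supports the survival of motor and sensory neurons. CNTF binds the membrane-anchored subunit encoded by Cntfr, which then gathers the signalling subunits LIFR (Lifr) and gp130 (Il6st). Their Janus kinases phosphorylate the transcription factor STAT3, which induces Socs3, and the SOCS3 protein binds gp130 and shuts the signal off. Clcf1 encodes a second ligand of the same receptor, and Il6ra the receptor subunit that brings interleukin-6 to gp130.

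Cntf (ENSMUSG00000079415.2) lies on chromosome 19, minus strand, at 12763660 to 12765632 in mm10 (GENCODE M21 on GRCm38, the same assembly). It has 2 exons and lies inside the annotated span of the zinc finger gene Zfp91 on the same strand, at 12763660 to 12796126. The coding transcript of Zfp91 ends 1387 bases before Cntf starts. A read-through transcript of Zfp91, annotated as subject to nonsense-mediated decay, runs on into Cntf, and its exons cover 847 of the 1073 exon bases of Cntf. Fragments from these bases cannot be assigned to 1 gene by position alone, which makes the single value of Cntf uncertain. Zfp91 was at 20.4 and 24.6 FPKM in the mutants, against 19.5 and 23.3 FPKM in wild type, so it stood far under Cntf in each sample and its groups overlapped. These values are per gene and give no level of the read-through transcript, so they do not settle how the shared fragments were assigned.

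**Figure D1:**
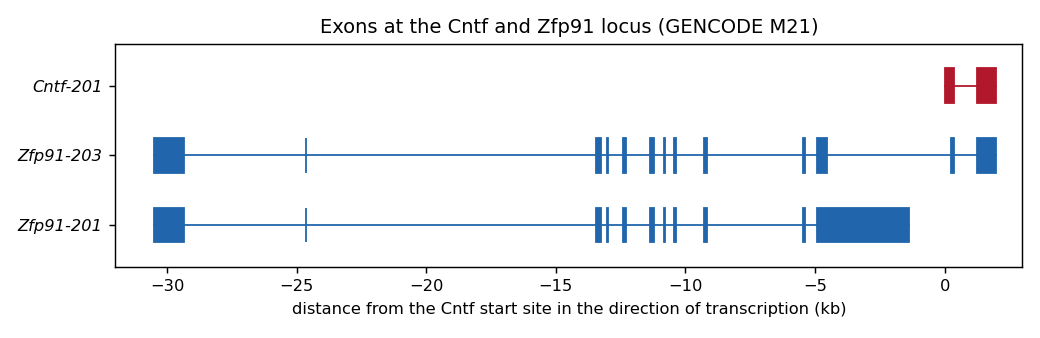
Exons (boxes) of Cntf (top row), of the read-through transcript of Zfp91 (middle row) and of its coding transcript (bottom row), by distance in kb from the Cntf start site in the direction of transcription. The read-through transcript shares the second exon of Cntf and part of the first, while the coding transcript ends before Cntf starts.

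RefSeq sequence (GRCm38.p6) is shown for a pair of stretches, the 250 bases before the Cntf start, since Cntf is the member whose groups stood furthest apart, and the single match to the STAT consensus in the members' promoter windows. The first is chr19:12765633-12765882, minus strand, between the coding transcript of Zfp91 and Cntf, with no base in an exon of Zfp91. Its capitals mark AACAAT, the core motif of SOX transcription factors such as the Schwann cell factor SOX10. The second is chr11:117969502-117969530, minus strand, before the RefSeq start of Socs3, and its capitals mark the STAT consensus TTCNNNGAA, which reads the same on both strands.
Cntf: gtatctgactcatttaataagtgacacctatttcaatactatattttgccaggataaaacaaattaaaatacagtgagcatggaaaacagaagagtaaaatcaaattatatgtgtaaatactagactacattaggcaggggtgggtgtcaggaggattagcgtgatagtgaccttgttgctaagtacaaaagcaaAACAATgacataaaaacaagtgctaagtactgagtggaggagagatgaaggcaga
Socs3: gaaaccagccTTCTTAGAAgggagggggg
Windows of 300 bases around RefSeq starts were found for 8 of the 9 members, 14 windows in all, with none for Clcf1. TTCNNNGAA stood in 1 member (Socs3), 154 bases before the start, and in 8.30% of all 32851 windows. AACAAT, searched on both strands, stood in windows of 2 members (Cntf and Cntfr) and in 10.7% of all windows, and it was picked after the Cntf sequence had been seen. A match is a run of letters and not a shown binding site, and the motifs do not overlap.

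Among the ligands, Cntf was abundant and Clcf1 was near the lower end of the matrix. Cntf was at 274 and 259.6 FPKM in mutant 1 and 2, against 150.5 and 168 FPKM in wild type 1 and 2. Both mutants lay above both wild types, by 1.55-fold in the closest pair and 1.82-fold in the widest. The means were 267 ± 9.93 FPKM in the mutants and 159 ± 12.3 FPKM in wild type (SD, n = 2 each), a ratio of 1.67. On the scale of log2(FPKM + 1) the difference, mutant minus wild type, was 0.74 with a standard error of 0.16. Standard errors throughout are limma's, which draw on the spread of other genes as well as the gene's own. The 2 mutants differed by 0.08 and the 2 wild types by 0.16. Without wild type 2, the sample of the other sex, the difference between the groups was 0.82. By level Cntf ranked 382 and 438 of the 14405 genes in the mutants, and 644 and 628 in wild type. Clcf1, the second ligand of the CNTF receptor, was at 1.92 and 1.56 FPKM in the mutants, against 1.78 and 1.53 FPKM in wild type. Its groups overlapped, and its level was far under that of Cntf in each sample, with ratios of Cntf to Clcf1 of 142 and 166 in the mutants and 84.7 and 109.7 in wild type.

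**Figure D2:**
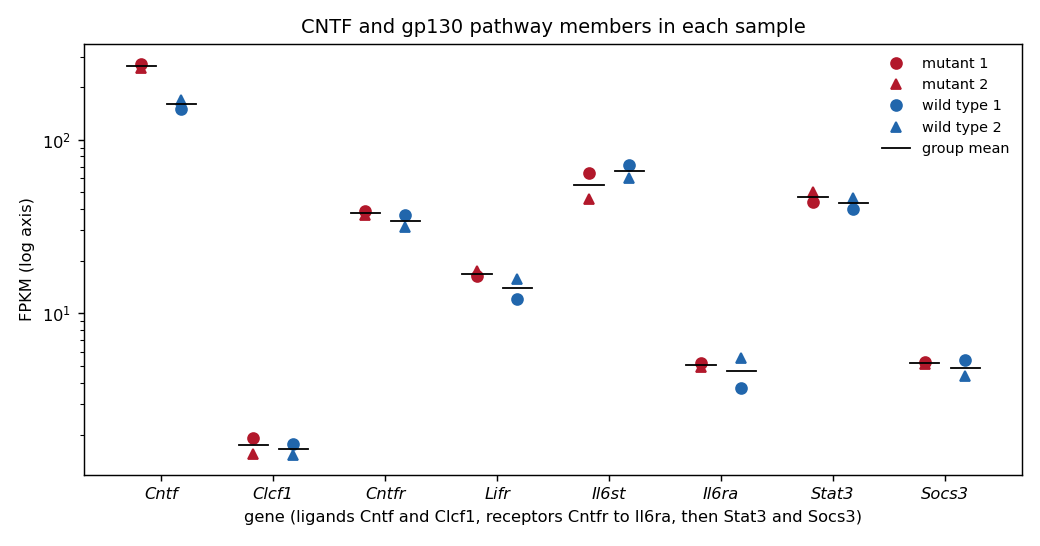
FPKM (log axis) of the 8 members in each sample, with mutants left of wild types, circles for replicate 1, triangles for replicate 2 and lines for the group means. The Cntf points of the mutants (274 and 259.6) lie above those of wild type (150.5 and 168), while for the other members the groups lie close together or overlap.

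The receptors were close between the groups. Cntfr, the CNTF-binding subunit, was at 38.7 and 37.0 FPKM in the mutants, against 36.9 and 31.2 FPKM in wild type. The mutants lay above the wild types, but mutant 2 exceeded wild type 1 by a ratio of only 1.00, and the log2 difference was 0.15 (standard error 0.16), or 0.04 without wild type 2. Lifr, the signalling subunit for CNTF and LIF, was at 16.4 and 17.5 FPKM in the mutants, against 12.1 and 15.8 FPKM in wild type. The groups did not overlap, and the log2 difference was 0.28 (standard error 0.18). That was smaller than the 0.36 between the 2 wild types, which differed in sex. The difference was 0.45 without wild type 2, the sample of the other sex, and 0.10 without wild type 1.

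Il6st, which encodes gp130, the subunit shared by the whole family, had the only negative difference among the members. It was at 63.8 and 45.6 FPKM in the mutants, against 71.6 and 60.1 FPKM in wild type. Mutant 1 lay between the wild types and mutant 2 below both. The log2 difference was -0.28 (standard error 0.22), against 0.47 between the 2 mutants. Without mutant 2 the difference was -0.04, and without wild type 2 it was -0.40. Il6ra was at 5.22 and 4.95 FPKM in the mutants, against 3.70 and 5.57 FPKM in wild type, with both mutants between the wild types. Its log2 difference was 0.13 (standard error 0.20), or 0.37 without wild type 2.

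Downstream of the receptors, Stat3 and Socs3 overlapped between the groups. Stat3 was at 43.8 and 49.9 FPKM in the mutants, against 39.8 and 46.2 FPKM in wild type (log2 difference 0.12, standard error 0.16). In each group the sample numbered 2 was the higher one. Socs3, the inhibitor that STAT3 induces, was at 5.27 and 5.10 FPKM in the mutants, against 5.39 and 4.37 FPKM in wild type, and both mutants lay between the wild types. Its means were 5.18 ± 0.126 FPKM in the mutants and 4.88 ± 0.720 FPKM in wild type (SD, n = 2 each), a log2 difference of 0.08 with a standard error of 0.16. Without wild type 2, the sample of the other sex, the difference was -0.05. The higher Cntf in the mutants was thus measured beside a Socs3 level within the wild type range, at the level of RNA. That range is set by 2 samples that differed in sex. Phosphorylation of STAT3 was not measured.

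Of the 8 members with values, 3 lay higher without overlap (Cntf, Cntfr and Lifr), 0 lower and 5 overlapped. Of the 14040 genes tested, 12.5% were higher and 19.6% lower without overlap. Nothing is read from the members' count, since they were chosen with this comparison known. Apart from Cntf, each of the other 7 had a log2 difference of less than 0.3 in size with all samples included. Without wild type 2, the sample of the other sex, Lifr (0.45), Il6st (-0.40) and Il6ra (0.37) exceeded that size. Clcf1 (-0.02), Cntfr (0.04), Stat3 (0.23) and Socs3 (-0.05) did not. With all samples the median over the members was 0.13, beside -0.0048 over all genes tested. In the limma fit across all genes, 0 of 14040 passed an adjusted p of 0.05 (0% called), members included. An unadjusted p under 0.05 was seen for 612, a smaller share than the 0.05 that would fall there by chance alone. Prdm12 itself, at a log2 difference of -2.14 (standard error 0.21), was among those not passing the adjusted p. The 0 therefore says little about smaller differences, such as those of the members. The authors' deposited table of 150 changed genes holds none of the 9 members, but the smallest log2 fold change in it is 1.01 in size, so a difference as small as that of Cntf could not have entered it.

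In order of level over the samples, the members ran Cntf, Il6st, Stat3, Cntfr, Lifr, Socs3, Il6ra and Clcf1. Cntf exceeded Il6st in each sample, by 4.29 and 5.69 times in the mutants and 2.101 and 2.79 times in wild type. Il6st and Stat3 did not differ beyond their spread, with Il6st the higher in 3 of 4 samples and the lower in mutant 2 (ratio 0.915). Stat3 and Cntfr were close in mutant 1 (ratio 1.13) and wild type 1 (1.08), with Stat3 above in all 4 samples. Socs3 and Il6ra, both near 5 FPKM, changed places between samples, with ratios from 0.785 to 1.46. Lifr was the least abundant of the 3 CNTF receptor subunits in each sample, with Cntfr over Lifr at 2.36 and 2.12 in the mutants and 3.06 and 1.98 in wild type. Ligand over receptor transcript, Cntf over Cntfr, was 7.06 and 7.01 in the mutants, against 4.07 and 5.37 in wild type.

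Schwann cell marker levels differed between the libraries, and their order over the samples was not that of Cntf. In bulk ganglia, fewer cells of a type and less RNA per cell cannot be told apart. Of 18 markers of myelinating Schwann cells, 12 were higher without overlap and 0 lower (12.5% and 19.6% over all genes tested). Their summed level was 11170.5 and 22711.5 FPKM in the mutants, against 11241 and 9096 FPKM in wild type, and none was at 0 in any sample. Mutant 2 alone stood apart in that sum, which a few abundant genes make up, while mutant 1 lay between the wild types. On the mean of the 18 log2 levels, in which each marker counts alike, both mutants lay above both wild types, with deviations from the mean of the 4 samples of -0.11 and 0.66 in mutant 1 and 2 and of -0.22 and -0.33 in wild type 1 and 2. Sox10 was at 32.8 and 53.9 FPKM in the mutants and 34.3 and 28.3 FPKM in wild type.

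Set against the mean of these 18 markers, Cntf did not separate the groups. Its log2 level minus theirs was 1.06 and 0.22 in mutant 1 and 2, against 0.31 and 0.58 in wild type 1 and 2, so mutant 1 stood highest and mutant 2 lowest. The difference of the means, mutant minus wild type, was 0.20. Without mutant 2 it was 0.62, without mutant 1 it was -0.22, without wild type 1 it was 0.06 and without wild type 2 it was 0.33. Mutant 1 had high Cntf at a Schwann marker sum inside the wild type range, but at a mean of the 18 log2 levels above both wild types. Mutant 2 had high Cntf with both measures above both wild types. The part of Schwann cell content in the Cntf values of either mutant was not tested. Against 8 markers of satellite glia, the cells that wrap the neuron bodies, the groups did separate. The values were 1.46 and 1.53 in the mutants and 0.49 and 0.77 in wild type. The mean of these markers differed by only -0.13 between the groups. The separation is therefore mostly that of Cntf itself (0.74), known when Cntf was chosen, and is no further result. Of these markers, 2 were higher and 3 lower without overlap (12.5% and 19.6% over all genes tested), and none was at 0. Against 16 sensory neuron markers the groups overlapped, at 1.75 and 0.89 in the mutants and 1.06 and 0.62 in wild type.

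**Figure D3:**
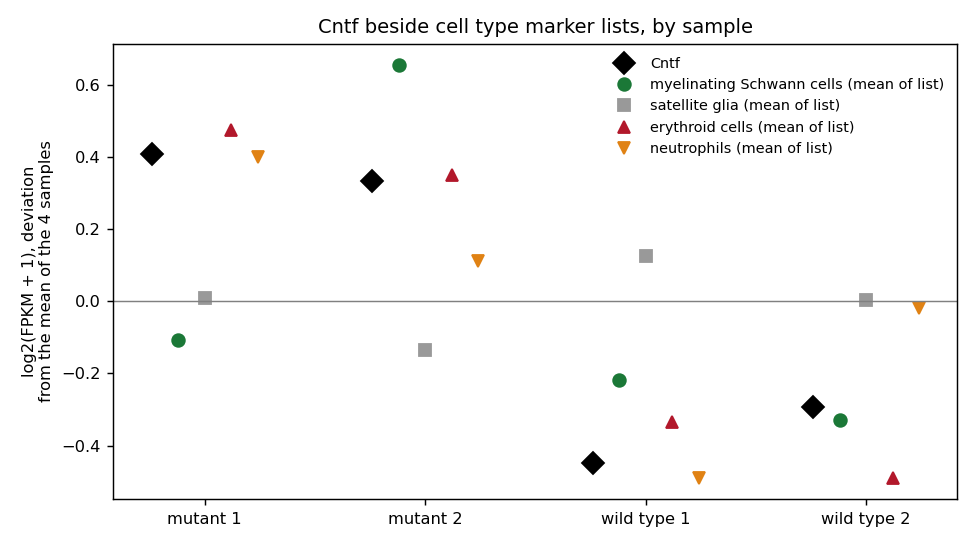
Deviation of log2(FPKM + 1) from the mean of the 4 samples, for Cntf (black diamonds) and for the mean of 4 marker lists, mutants left of wild types. Cntf is at 0.41 and 0.33 in the mutants and the erythroid list at 0.48 and 0.35, while the Schwann cell list is at -0.11 in mutant 1 and 0.66 in mutant 2.

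Of 14 cell type marker lists, the one nearest to Cntf over the 4 samples was that of erythroid cells, by the root mean square of the difference between deviations (0.12). Neutrophils (0.18) and T and B cells (0.22) came next, and myelinating Schwann cells were the seventh (0.33). Erythroid markers, 6 with values of 8 listed, were all higher in both mutants, with sums of 5862 and 6072 FPKM in the mutants, against 3147 and 2954 FPKM in wild type. Over all genes tested, 12.5% were higher without overlap, the share to set beside each count here. Neutrophil markers were higher without overlap in 5 of 8, but their sums, 2946 and 2224 FPKM in the mutants and 1468 and 2279.9 FPKM in wild type, overlapped. T and B cell markers were higher in 5 of 7, with sums of 31.8 and 32.0 FPKM in the mutants and 22.3 and 21.4 FPKM in wild type. No marker in these lists was at 0, and the part of blood in the Cntf values was not tested. Among genes of at least 5 FPKM, the 5 most like Cntf by the same measure were the red cell anion exchanger gene Slc4a1 (0.06), the neutrophil granule gene Camp (0.08), 5730408K05Rik (0.08), the globin gene Hbb-b1 (0.08) and Ly6d (0.09). Slc4a1 was at 16.3 and 13.9 FPKM in the mutants, against 8.61 and 9.30 FPKM in wild type. For Socs3 the 5 nearest were Wdr6, Prrc2a, Adamts5, Samd4b and Tmem184b, at 0.01 to 0.02. Slc4a1 and Hbb-b1 are members of the erythroid list and Camp of the neutrophil list, and Hbb-b1 can share fragments with near-identical globin copies. With 4 samples this likeness is a description.

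The other genes of the pathway, 66 listed by name, had no common direction. Values were used for 58, of which 56 passed the filter of 1 FPKM on group means and were tested. In the limma fit 0 passed in either direction. Without overlap between the groups, 6 were higher and 12 lower, beside the 12.5% and 19.6% of all genes. The same shares stand beside the counts of each list below, and nothing is read from those counts. The median log2 difference of the 56 genes was -0.01, with 27 positive and 29 negative.

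Of 8 other gp130 ligands and soluble partners, 4 were tested, 0 were higher and 1 was lower without overlap (median -0.08). Ctf1, which encodes cardiotrophin-1, another ligand of the LIFR and gp130 pair, was at 5.20 and 4.54 FPKM in the mutants, against 7.54 and 6.79 FPKM in wild type (log2 difference -0.48). It lay below both wild types in both mutants, opposite to Cntf.

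Of 5 other receptors of the family, 3 were tested, 0 were higher and 2 were lower without overlap (median -0.29). Il31ra, the receptor subunit for the itch cytokine interleukin-31, was at 3.34 and 2.97 FPKM in the mutants, against 4.97 and 5.32 FPKM in wild type (log2 difference -0.56). Osmr, its partner and also the oncostatin M receptor, was at 9.77 and 8.35 FPKM in the mutants, against 11.3 and 11.2 FPKM in wild type (-0.29). For both genes each mutant lay below each wild type. Markers of sensory neurons in general summed to 4634 and 7772 FPKM in the mutants and 4263 and 5974 FPKM in wild type, with overlap. None of them is particular to itch-sensing neurons, and the part of those neurons in the Il31ra and Osmr values was not tested. Markers of fibroblasts and meninges moved with these lower genes and with Ctf1. Of 13, 7 were lower without overlap and 0 higher (19.6% and 12.5% over all genes tested), and none was at 0. Their sums were 9656 and 6483 FPKM in the mutants, against 19795 and 18287 FPKM in wild type, and their part in the values of Il31ra, Osmr and Ctf1 was not tested. Il11ra1, the interleukin-11 receptor, was at 42.8 and 30.6 FPKM in the mutants and 35.0 and 38.9 FPKM in wild type, with overlap.

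Among 14 kinases, adaptors and other STATs, 13 were tested and had the narrowest range, from -0.14 to 0.14 on the log2 scale, with 2 higher and 2 lower without overlap. Jak1, the main kinase bound to gp130, was at 45.7 and 55.4 FPKM in the mutants and 50.3 and 57.1 FPKM in wild type, with overlap. The adaptor gene Grb2 likewise overlapped (log2 difference 0.03). Jak2 (-0.12), Stat6 (-0.13) and Stat2 (0.11) were apart between the groups, each by less than its limma standard error of 0.14. That standard error draws on the spread of other genes and is not the spread of the gene alone.

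Of 15 other negative regulators, all tested, 1 was higher and 5 lower without overlap (median 0.03). Ptprt, a receptor-type phosphatase that can act on STAT3, was at 3.34 and 4.91 FPKM in the mutants, against 2.32 and 2.58 FPKM in wild type (log2 difference 0.55). Socs6 (-0.29) and Pias1 (-0.25) were lower in both mutants. Socs2, a feedback inhibitor of growth hormone signalling, was at 12.9 and 15.6 FPKM in the mutants and 26.7 and 14.7 FPKM in wild type, so wild type 1 alone was high. The phosphatase gene Ptpn6 overlapped (0.08).

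Of 24 genes known to be induced through STAT3, 21 were tested, 3 were higher and 2 lower without overlap (median 0.06). Over all genes tested the shares were 12.5% and 19.6%, and nothing is read from these counts. Lcn2, which encodes lipocalin-2 and is also a neutrophil granule gene, was at 125 and 129 FPKM in the mutants, against 66.2 and 117 FPKM in wild type (log2 difference 0.53). The higher value of wild type 2 lay close to the mutants. The neutrophil sums above showed a low value in wild type 1 too, and their part in Lcn2 was not tested. Pim1, a survival kinase gene, was at 6.62 and 6.38 FPKM in the mutants, against 4.55 and 4.87 FPKM in wild type (0.39). Fgl2 was at 36.8 and 24.1 FPKM in the mutants, against 46.1 and 47.4 FPKM in wild type (-0.63), and the anti-apoptotic gene Mcl1 was lower as well (-0.24). Of the 21 differences, 11 were positive and 10 negative.

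**Figure D4:**
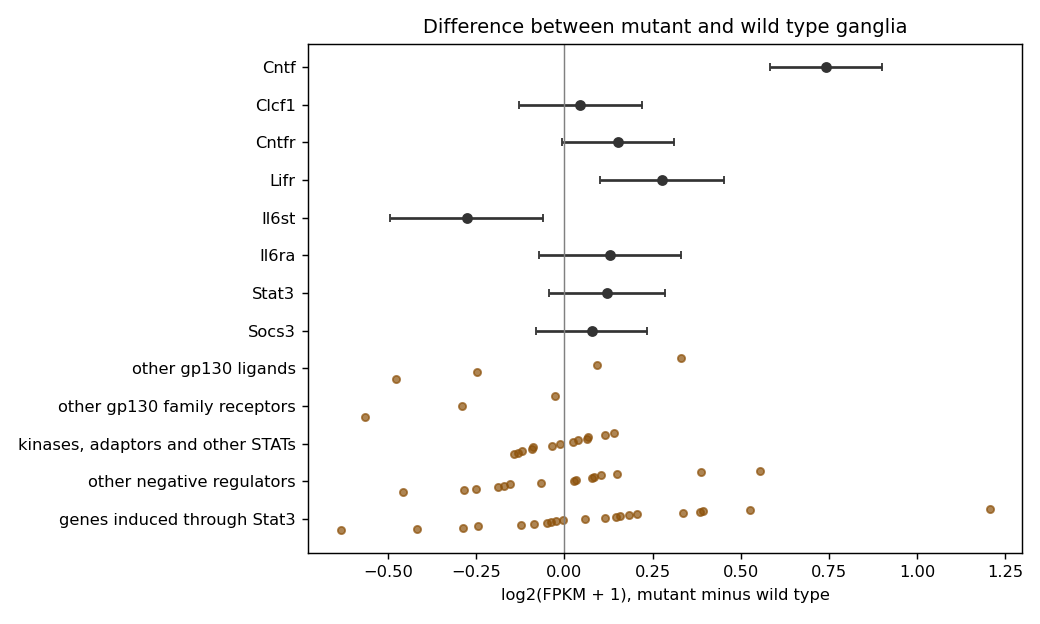
Difference in log2(FPKM + 1), mutant minus wild type, for the 8 members with values (black, bars of 1 standard error) and for each tested gene of 5 other pathway lists (brown). Cntf stands at 0.74 and the other members between -0.28 and 0.28. The brown point furthest right is Saa3 (1.21), an overlapping gene named after its value was seen.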

How the data were processed

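Per the labels, ganglia were removed in artificial cerebrospinal fluid, RNA was taken up in TRI reagent and purified on columns, and libraries followed Illumina's protocols. The authors deposited FPKM per gene and sample in a matrix. Their deposited table of 150 genes gives, per the file headers and in Cuffdiff's format, FPKM per group, log2 fold changes, p-values, q-values and a test statistic (a score, not used here). CASAVA, TopHat2 2.1.2, Cufflinks 2.2.1 and mm10 are named in the submitters' processing notes. How libraries were scaled, and their strandedness: not given in the sources used here. Each of the 14405 genes reached 1 FPKM in at least 1 sample. FPKM totals ran from 620018 to 686830 per sample. Read depth is unknown, so no counting interval is given.

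limma 3.58.1 (R 4.3.3) was fitted to log2(FPKM + 1) over the 14040 genes whose mean reached 1 FPKM in mutant or wild type, with a variance prior that follows expression and Benjamini-Hochberg adjustment at 0.05. The log scale understates changes of low genes. With 2 residual degrees of freedom, precision is low, and the smallest p of an exact two-sided permutation test is 0.333. The labels name no separate animals, so spread may be technical. The members and gene lists were chosen with earlier results of these data known. Named genes are the members, from each pathway list up to 3 non-overlapping genes with the greatest log2 difference and the 2 most abundant, and the 5 genes most like Cntf and like Socs3, of which not every one is reported here. The nearest marker list was computed after seeing the data. The script was tested on simulated data.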

Additional observations from a re-analysis of the deposited data

How the results depend on the processing

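With 2 samples a group and unknown depth, only differences well above the spread of a pair can be seen. Across 12 alternatives the log2 difference of Cntf ran from 0.66 to 0.82. Its groups do not overlap, so leaving out a sample could not have changed its sign. Leaving out each sample in turn changed the sign of Clcf1 (-0.05 to 0.14), Il6ra (-0.11 to 0.37) and Socs3 (-0.05 to 0.20), and gave -0.51 to -0.04 for Il6st and 0.10 to 0.45 for Lifr. Members with a positive difference numbered 5 to 7 of 8 in those fits. With a sample left out, the genes passing limma's adjusted p over the whole matrix numbered 0 to 5. The 5 came without wild type 1, where wild type 2 alone stands for its group and is assumed to vary as the mutants do. They were Csrp3, Ddx3y, Eif2s3y, Snurf and Xist, named after their values were seen, of which Ddx3y, Eif2s3y and Xist are sex-linked, and none is a pathway gene. The median of the other pathway genes was 0.019 after quantile normalization and -0.031 at equal FPKM totals, and ran from -0.064 to 0.019 with a sample left out. Cntf relative to Schwann markers ran from -0.22 without mutant 1 to 0.62 without mutant 2. With a replicate block 61 genes passed in the limma fit, 3 higher and 58 lower, none a member or another pathway gene. Same-numbered samples deviated together (r = 0.48 over 14040 genes), but the labels give the numbers no meaning, so they are not treated as pairs. Within numbers Cntf differed by 0.86 and 0.63.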
